A study of Mus musculus with 8 samples.

Results

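States 22 and 9 are the primitive blood-like states of a reference map of the early mouse embryo, and they were taken by their column numbers, 2 of the 42 cell states in the deposited table of cluster centres. For every state the table holds 1 score per gene, 712 in all, termed its level. The lowest level was 0, the median 0.0507 and the highest 1.79. The map rests on 8 droplet libraries of pooled wild-type embryos, with 1 library at day 6.5 (10 embryos), 1 at day 7.0 (9 embryos), 2 at day 7.5 (7 and 4 embryos) and 2 libraries, a and b, labelled with 10 embryos at each of days 8.0 and 8.5. All of these embryos came from B6D2F1 oocytes injected with sperm of B6/CAST F1 males, were cultured to the blastocyst and grew on in CD-1 surrogate females. The columns name no library, stage, cell number or depth. Each level therefore stands without a replicate error, no test was possible, and the precision of a level is unknown. Whether the scale is logarithmic is not given in the sources used here, so states were compared by differences in level and not by folds. The states are clusters of cells, so genes that differ between them are given as a description. A gene was called higher or lower when both states differed from the mean of the other 40 states by at least 0.5.

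Primitive red cells are the first blood cells of the mammalian embryo. They arise in the blood islands of the yolk sac from mesoderm that also gives vessels, enter the circulation while still nucleated, and fill with haemoglobin, which consists of globin chains and haem. Gata1 and Klf1 are transcription factors that drive this programme, and Alas2 starts haem synthesis in erythroid cells. State 36, which served as the progenitor in the comparisons, was chosen for that place and not from any measured lineage.

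The markers given with the label were high in these states, which restates the label and is not an independent check of it. Hba-a1, Hba-a2, Hbb-bs, Alas2 and Klf1 were all at their highest in the map in these states, and their summed level was 6.30 in state 22 and 5.87 in state 9, against 2.06 in state 36. In the other 39 states the sum ran from 0.0322 to 1.34. Endothelial markers were close to 0, with a sum over 10 genes of 0.118 in state 22 and 0.254 in state 9, against 2.51 in state 36, and no single one of the 10 passed 0.0714 in either state. The 2 measured megakaryocyte markers, Itga2b and Plek, summed to 0.123 in state 22 and 0.251 in state 9, against 1.31 in state 36. Both sums were above the median of 0.00754 for the other 39 states, where the highest was 0.337 in state 32. Most of the sum was Itga2b, at 0.119 and 0.238 against a mean of 0.0341 in the other 40 states. Markers of visceral endoderm, the yolk sac layer that lies next to the blood islands, summed to 0.717 and 0.674 over 8 genes, near the median of 0.775 for the other 39 states. None of the 7 leukocyte markers listed was among the 712 genes, so that cell type was not analysed here.

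In all, 23 of 712 genes (3.23%) were called higher in states 22 and 9 than in the other states, and 6 (0.843%) lower. The higher genes were led by globins, haem enzymes and erythroid regulators, and 18 of the 23 belonged to lists of known blood genes. Of all 712 genes, the globin, haem, iron, regulator, membrane and other red cell lists held 3, 6, 2, 9, 7 and 6. The lists were chosen with earlier results of these data known, so the 18 is a description and not independent support. Both states lay above every other state in 31 genes (4.35%), among them 21 of the 23. They lay below every other state in 37 genes (5.2%), but the gap to the next state was 0.1 or more in only 1 of those, against 25 of the 31 at the top. The last gene to be called higher was Chchd10, at 0.876 in state 22 and 0.857 in state 9 against a mean of 0.356, and the first to miss was Acp5 (0.552 and 0.602 against 0.06298). At the other end Tpm4 was just inside (0.254 and 0.325 against 0.834) and Cnn3 just outside (0.275 and 0.321 against 0.809).

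**Figure D1:**
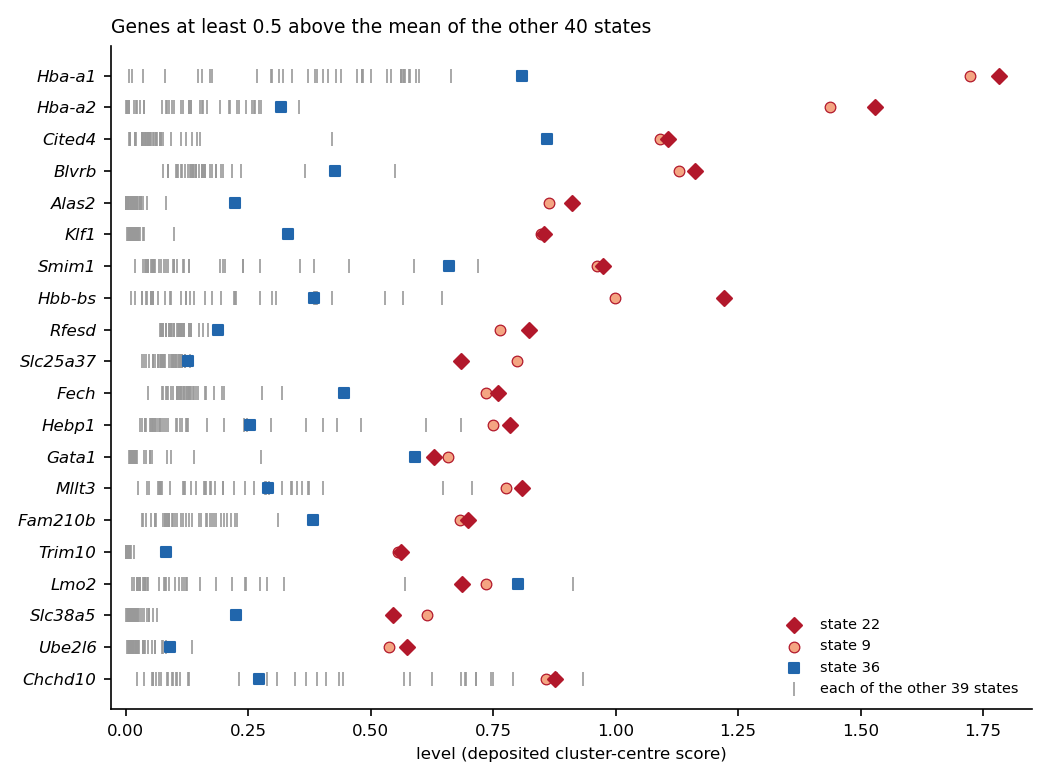
Levels of 20 of the 23 genes called higher, with state 22 as diamonds, state 9 as circles, state 36 as squares and each of the other 39 states as a grey tick. States 22 and 9 lie close together at the right for most genes, and Hba-a1 stands furthest right at 1.78 and 1.72. Lmo2, Chchd10, Gata1, Hebp1 and Mllt3 are among those with other states close by or beyond.

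The globin genes encode the protein chains of haemoglobin. Hba-a1 and Hba-a2, adjacent copies of the adult alpha chain on chromosome 11, and Hbb-bs, a beta chain on chromosome 7, were the 3 members of 13 listed globins among the 712 genes, and all 3 were called higher against the background of 3.23%. Hba-a1 (GRCm38, chromosome 11, 32283511 to 32284465) was at 1.78 in state 22 and 1.72 in state 9, against a mean of 0.404 in the other states and 0.808 in state 36, the next highest. Hba-a2 (chromosome 11, 32296489 to 32297298) was at 1.53 and 1.44, against a mean of 0.135 and a highest other level of 0.354 in state 40. Hbb-bs (chromosome 7, 103826534 to 103828096) was at 1.22 and 0.999, against a mean of 0.2003 and a highest other level of 0.645 in state 25. No other state reached the levels of these states in any of the 3 genes. The copies Hba-a1 and Hba-a2 share 537 of 538 aligned transcript bases, so how reads were divided between them is uncertain. The embryonic chains Hba-x, Hbb-y and Hbb-bh1, which primitive red cells are known for, were not analysed here, so the primitive part of the label was not checked.

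Haem synthesis begins and ends in the mitochondrion, where iron is put in, and genes of haem synthesis and breakdown were high together. Of 16 listed genes of haem synthesis and breakdown 6 were measured, and 5 of these were called higher, against 3.23% of all genes. All 6 lay above every other state, against 4.35% of all genes. Their median difference from the other states was 0.608, against -0.0816 over all 712 genes. Alas2 (chromosome X, 150547375 to 150570638), the first and rate-limiting enzyme of erythroid haem synthesis, was at 0.911 in state 22 and 0.865 in state 9, against a mean of 0.02501. Fech, which inserts the iron into the ring in the last step, was at 0.7598 and 0.736 against 0.137. Both states stood clear of the rest for these enzymes, and the next highest was state 36, at 0.222 for Alas2 and 0.446 for Fech. Blvrb, a reductase of the haem breakdown product biliverdin, was at 1.16 and 1.13 against 0.168, and the next highest was state 14 at 0.5499. Hebp1, which binds haem, was at 0.785 and 0.7498 against 0.162, with state 40, which had the highest sum of visceral endoderm markers, close behind at 0.684. Fam210b, a mitochondrial protein, was at 0.699 and 0.683 against 0.133. Abcb10, a transporter of the inner mitochondrial membrane, missed the threshold through state 22 alone, at 0.488 against 0.634 in state 9.

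An iron importer was also high. Slc25a37, mitoferrin, which carries iron into the mitochondrion, was at 0.685 in state 22 and 0.798 in state 9 against a mean of 0.0858, and no other state passed 0.131. Trf, the plasma iron carrier transferrin and the other measured gene of 11 listed for iron, was at 0.0132 and 0.00846 against 0.06898. Rfesd, a protein with a Rieske iron-sulphur domain, was at 0.823 and 0.764 against 0.106.

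To show what stands in front of these genes, the 250 bases before the RefSeq start (GRCm38.p6) are printed for 4 of the 5 marker genes. For all 4 the RefSeq start lies inside the gene span given in the text, which is from GENCODE. Each printed stretch therefore runs partly within that span. Hba-a2 was left out because 297 of 297 aligned bases of its window of 300 were the same as those of Hba-a1. Capitals mark the GATA motif, searched as AGATAA or the same with T as the first letter, G as the last or both. They also mark the CACCC-box motif, searched as CCNCNCCC, each on both strands. The GATA matches of Alas2 and Klf1 and the CACCC-box matches of Alas2 lie on the opposite strand.
Hba-a1, chr11:32283422-32283671, + strand: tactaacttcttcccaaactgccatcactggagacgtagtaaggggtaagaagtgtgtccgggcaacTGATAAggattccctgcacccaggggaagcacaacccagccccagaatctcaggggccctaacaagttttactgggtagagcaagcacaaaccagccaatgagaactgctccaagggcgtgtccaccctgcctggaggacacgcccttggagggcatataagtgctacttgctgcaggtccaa
Hbb-bs, chr7:103827929-103828178, - strand: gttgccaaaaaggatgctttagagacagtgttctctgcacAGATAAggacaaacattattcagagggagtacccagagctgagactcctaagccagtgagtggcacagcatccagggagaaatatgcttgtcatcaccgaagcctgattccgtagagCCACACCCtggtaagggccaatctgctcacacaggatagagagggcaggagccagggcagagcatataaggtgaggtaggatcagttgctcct
Alas2, chrX:150547167-150547416, + strand: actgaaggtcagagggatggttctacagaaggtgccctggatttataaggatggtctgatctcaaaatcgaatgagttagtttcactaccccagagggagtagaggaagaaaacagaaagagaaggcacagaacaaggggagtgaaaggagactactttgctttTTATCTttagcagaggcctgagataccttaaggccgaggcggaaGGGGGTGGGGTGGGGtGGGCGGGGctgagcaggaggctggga
Klf1, chr8:84901732-84901981, + strand: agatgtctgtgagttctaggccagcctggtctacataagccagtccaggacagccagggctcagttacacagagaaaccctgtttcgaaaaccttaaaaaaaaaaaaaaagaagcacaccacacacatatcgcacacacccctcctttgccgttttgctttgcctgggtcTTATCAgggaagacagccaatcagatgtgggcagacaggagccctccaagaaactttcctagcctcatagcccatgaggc
A GATA motif began 183 bases before the start of Hba-a1, 210 before that of Hbb-bs, 86 before that of Alas2 and 80 before that of Klf1. The CACCC-box letters stood 93 bases before the start of Hbb-bs and, for Alas2, in overlapping matches that begin 42, 40 and 35 bases before the start and in another at 26. The match at 26 (GGGCGGGG) fits the search but holds no CACCC. Of the 23 higher genes 17 had a promoter window of 300 bases (250 before and 50 after the start) in the RefSeq table, and 9 of those (52.9%) held a GATA motif, against 27.6% of 493 genes of the table with a window and 33.04% of 27025 genes in all. A CACCC-box motif was in 12 of the 17 (70.6%), against 79.5% of the table's genes and 51.9% of all. The shorter CACCC was in 17 of 17, against 77.1% and 59.8%, and the core GATA in 13 (76.5%), against 58.8% and 61.5%. CACCC does not lie within every CACCC-box match, so it is not a core of that search. Both Hba-a1 and Hba-a2 are counted among the 17, though their aligned bases are the same. Median GC content was 56.5% for the 17 genes, 59.3% for the table's genes and 52.8% for all, and its part in these shares was not tested. The core GATA lies within every GATA motif. A match is a stretch of letters and not a measured binding site. Slc25a37, Fech and Lmo2 were among those with no entry.

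Of 23 listed regulators of the lineage 9 were measured. Of these 4 were called higher than in the other states (Klf1, Gata1, Cited4 and Lmo2), against 3.23% of all genes. Gata2 and Bcl11a were under 0.1 in both states, as were 79.4% of all genes. Against state 36, 5 of the 9 were lower in both states at any size, near the share of 53.2% over all genes. Klf1 (chromosome 8, 84901928 to 84905291), which activates the beta-globin locus and many other red cell genes, was at 0.854 in state 22 and 0.847 in state 9, against a mean of 0.0275 and 0.3301 in state 36. Cited4, a transcriptional cofactor, was at 1.11 and 1.09 against 0.0857, with state 36 at 0.8599. Gata1 (chromosome X, 7959260 to 7978071), the GATA factor of red cells and megakaryocytes, was at 0.628 and 0.657 against 0.0455. State 36 was close to these at 0.591. Klf1 was the only 1 of the 9 that was at least 0.5 higher than in state 36, against 1.54% of all genes. Lmo2, a bridging protein of the GATA and Tal1 complex, was at 0.687 and 0.735 against 0.163, below 0.7999 in state 36 and 0.914 in state 13, which had the highest sum of blood progenitor markers. In state 32 Lmo2 was also at 0.687. Tal1, its basic helix-loop-helix partner, was at 0.5203 and 0.602, against 0.572 in state 36 and 0.716 in state 13. Nfe2 stood at 0.368 and 0.383 against 0.496 in state 36, and Lyl1 at 0.382 and 0.372 against 0.598. Outside these states, state 36, state 13 and state 32, which had the highest sum of endothelial markers, Nfe2 did not pass 0.0125 and Lyl1 did not pass 0.0366. Gata2, the GATA factor of early progenitors, was at 0.0351 and 0.0709, against 0.2404 in state 36 and 0.465 in state 13. Bcl11a, which represses embryonic globin genes, was at 0.00138 and 0.00148, against 0.138 in state 36.

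Surface and skeleton genes of the red cell were measured for 7 of 28 listed. All 7 were higher in both states than in state 36, against 30.5% of all genes, but only 1 differed by 0.5, against 1.54%. Gypc, a glycophorin that anchors the skeleton, was at 0.4499 in state 22 and 0.491 in state 9 against 0.377 in state 36, and no state outside 36, 13 and 32 passed 0.0689. Sptb, the beta chain of spectrin, was at 0.213 and 0.387 against 0.154. Tmod1, which caps actin filaments, was at 0.423 and 0.466 against 0.147 in state 36, and state 21 was higher at 0.787. Tspan33, a tetraspanin, was at 0.314 and 0.531 against 0.174. The remaining pair, the glucose transporter Slc2a1 (0.673 and 0.7604) and the surface protein Cd24a (0.6196 and 0.610), were widely expressed, with means in the other states of 0.876 and 0.853 that were higher than in these states.

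Of 33 further red cell genes 6 were measured and 4 were called higher, counting Rfesd above, against 3.23% of all genes. Smim1, whose human homologue carries the Vel blood group, was at 0.975 in state 22 and 0.961 in state 9 against a mean of 0.162. Mllt3, a chromatin reader of the super elongation complex, was at 0.8097 and 0.777 against 0.219, and state 31 reached 0.707. Trim10, a tripartite motif protein known from red cell differentiation, was at 0.562 and 0.555 against 0.00677. State 36 was at 0.08198 for Trim10 and no other state passed 0.0174. Epor, the erythropoietin receptor, was at 0.464 and 0.546 against 0.0372, above every other state though under the threshold. Kit, the stem cell factor receptor, was at 0.0109 and 0.0479, against 0.215 in state 36.

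Some genes that are not chiefly known from blood were also highest here. Slc38a5, an amino acid transporter, was at 0.545 in state 22 and 0.614 in state 9 against a mean of 0.0251, and Ube2l6, the ubiquitin-conjugating enzyme of Isg15, at 0.574 and 0.537 against 0.0321. Acp5, the tartrate-resistant acid phosphatase known from osteoclasts, was at 0.552 and 0.602, against 0.0486 in state 36. Its next highest level was 0.429, in state 28.

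Against state 36 the difference ran both ways. In 11 of 712 genes (1.54%) both states were at least 0.5 higher than state 36, and in 11 (1.54%) they were at least 0.5 lower. Of the 11 higher genes 10 were also called higher than the other states, and Acp5 was the exception. The largest difference was in Hba-a2 (mean of states 22 and 9 1.48 against 0.316), and Hba-a1 (1.75 against 0.808), Hbb-bs (1.11 against 0.384) and Blvrb (1.15 against 0.428) were among the next. Chchd10, a protein of the mitochondrial intermembrane space, was also among them, at 0.876 in state 22 and 0.857 in state 9, against 0.272 in state 36. The position of state 36 between the rest of the map and the red cell states differed from gene to gene. Scaled so that the mean of the other 39 states is 0% and the mean of states 22 and 9 is 100%, state 36 lay at a median of 27.1% over the 23 higher genes, and over 50% in 6 of them. Among these, Lmo2 was beyond the end at 116%, Gata1 was at 91.6%, Cited4 at 76.9%, Smim1 at 62.4% and Fech at 51.2%. At the low end Ube2l6 was at 11.3%, Slc25a37 at 6.29% and Chchd10, lower in state 36 than elsewhere, at -16.9%. Among the regulators Klf1 stood lower, at 37.4%, and the globins were at 30.5% for Hba-a1, 13.7% for Hba-a2 and 20.6% for Hbb-bs.

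**Figure D2:**
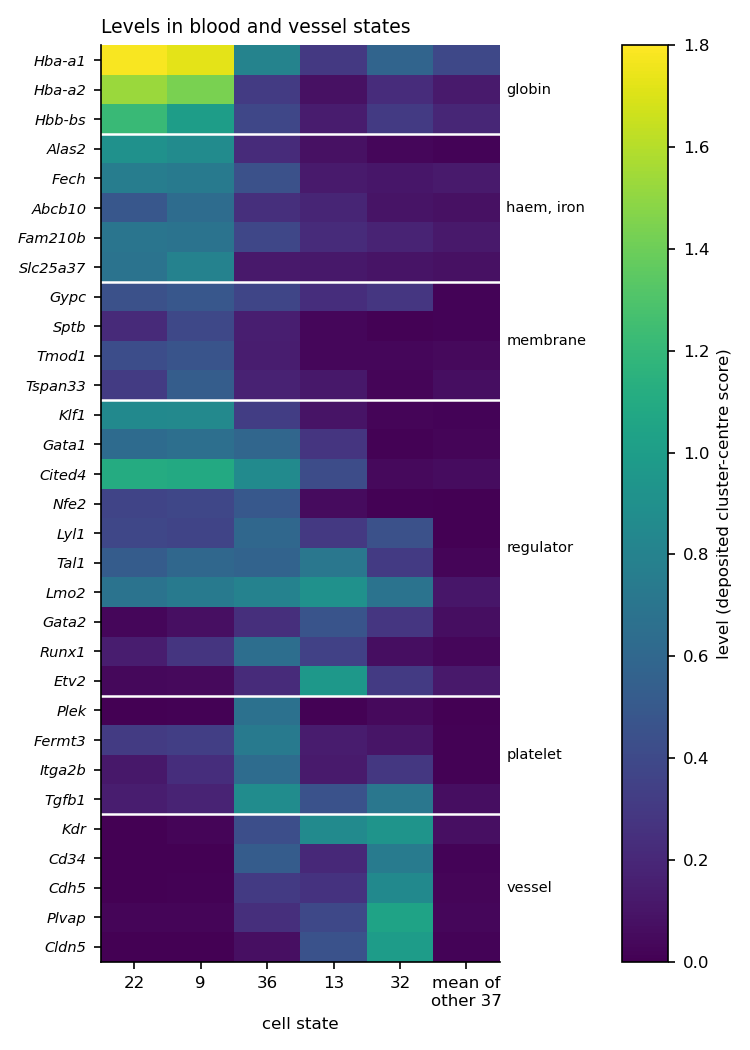
Levels of genes from the lists (rows, grouped by role) in states 22, 9, 36, 13 and 32 and as the mean of the other 37 states (columns). Among these columns the globin, haem, iron and membrane genes drawn are brightest in states 22 and 9, the platelet genes in state 36 and the vessel genes in state 32. Lmo2 and Tal1 are bright in states 22, 9, 36 and 13, and Lmo2 is as bright in state 32 (0.687) as in state 22.

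Of the 11 genes lower than in state 36, 4 belonged to the progenitor, endothelial, megakaryocyte and leukocyte lists. Of all 712 genes, the progenitor and endothelial list held 29 and the megakaryocyte and leukocyte list 6. Plek, pleckstrin of platelets and leukocytes (chromosome 11, 16971206 to 17052381), was at 0.00387 in state 22 and 0.0137 in state 9, against 0.6698 in state 36, and Rab27b, a GTPase of granule release, at 0.0369 and 0.0476 against 0.627. Tgfb1, a secreted growth factor, was at 0.141 and 0.182 against 0.872, and Rasgrp2, a guanine exchange factor that activates platelet integrins, at 0.304 and 0.411 against 0.928. For these 4 genes state 36 had the highest level in the map. Cd34, a surface protein of blood progenitors and endothelium, was at 0.000602 and 0.00403 against 0.525, Klf2 at 0.0803 and 0.0662 against 0.655, and Mef2c at 0.0281 and 0.04998 against 0.778. Hapln1, which links hyaluronan in the matrix, was at 0.02604 and 0.0477 against 0.582, and Arpc1b, a subunit of the Arp2/3 actin complex, at 0.174 and 0.217 against 0.952. Ctla2a (0.0187 and 0.0175 against 0.709) and Tpm4 made up the 11. Of 6 measured megakaryocyte and leukocyte genes 2 (Plek and Tgfb1) were lower than state 36 by 0.5, against 1.54% of all genes. All 6 were lower in both states, against 53.2% of all genes. Fermt3, an integrin activator of platelets and leukocytes, kept an intermediate level, at 0.3096 and 0.337 against 0.733 in state 36 and 0.0322 at most outside states 36, 13 and 32. Of 29 measured blood progenitor and endothelial genes 24 were under 0.1 in both states, against 79.4% of all genes. Only 2 (Cd34 and Klf2) were lower than state 36 by 0.5, against 1.54%. At any size 28 were lower in both states than in state 36, against 53.2%. The exception, Tal1, lay below state 36 in state 22 and above it in state 9. Among the low ones were the VEGF receptor Kdr (0.00587 and 0.0260, against 0.436 in state 36), the vessel cadherin Cdh5 (0.00274 and 0.0126 against 0.308) and Etv2 (0.0384 and 0.0469 against 0.224). Runx1, which blood stem cells need to form, was at 0.146 and 0.276, against 0.6497 in state 36 and a mean of 0.0587 in the other 40 states.

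The genes lowest in these states compared with the whole map were few by size, but levels near 0 elsewhere left most genes little room to drop. Krt18 (chromosome 15, 102028180 to 102032027) and its partner Krt8, the keratins of simple epithelia, were at 0.108 in state 22 and 0.148 in state 9 against a mean of 0.7098, and at 0.114 and 0.142 against 0.677. They were the 2 genes called lower among 19 measured of epithelium, adhesion and matrix, against 0.843% of all genes. State 36 had similar levels of 0.154 and 0.102. Tpm4 (chromosome 8, 72134975 to 72153142), a tropomyosin of the actin skeleton, was the only gene of the 37 with a gap of 0.1 or more to the next state. It was at 0.254 and 0.325 against a mean of 0.834, and every other state was at 0.432 or above, with state 36 at 0.9104. The imprinted gene Mest was at 0.206 and 0.276 against 0.809, Phlda2, a growth-restraining imprinted gene, at 0.256 and 0.288 against 0.798, and Igfbp2, which binds insulin-like growth factors, at 0.0548 and 0.0892 against 0.6097. Neither of these imprinted genes was lowest here: Mest reached down to 0.197 in state 27 and Phlda2 to 0.1399 in state 34. After Tpm4 the widest gaps among the 37 lowest genes were in Mdfi, an inhibitor of myogenic factors (0.0123 and 0.0169, against 0.0408 in the next state), Pcbd1 (0.0539 and 0.0615 against 0.0822), the FGF receptor Fgfr1 (0.0216 and 0.0386 against 0.0587) and Ldhb (0.0426 and 0.0613 against 0.0809). Ldhb, a lactate dehydrogenase chain, had a mean of 0.476 in the other states, and its next lowest state was 36. The adaptor Dab2, Ypel3, Cxx1b, the repressor Tgif1 and the junction protein Cgnl1 completed the first 10.

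**Figure D3:**
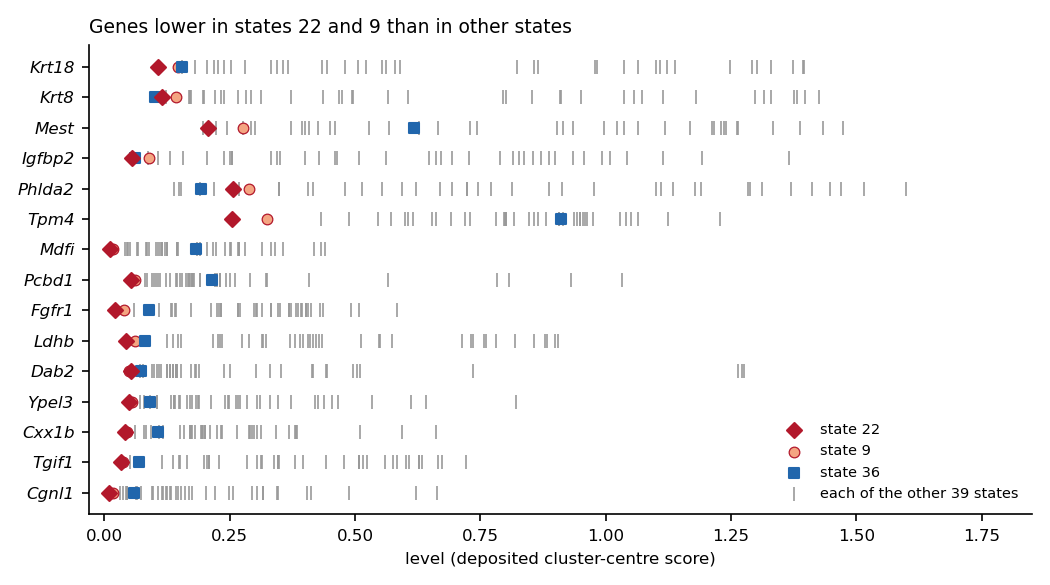
Levels of the 6 genes called lower and of 9 further genes with the widest gap below every other state, with state 22 as diamonds, state 9 as circles, state 36 as squares and each of the other 39 states as a grey tick. Only Tpm4 shows a clear gap, with 0.254 and 0.325 against 0.432 in the next state, and for Krt18, Krt8 and Igfbp2 state 36 lies beside the red cell states.

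These states had the lowest summed level of the whole map. Summed over 712 genes, it was 73.6 in state 22 and 81.6 in state 9, the lowest of the 42, against 99.3 in state 36 and 166 in the highest state, 38. The median over genes was 0.0117 in state 22 and 0.0173 in state 9. A level of 0.25 was reached by 95 genes in state 22, 103 in state 9 and 130 in state 36. The count of lowest genes moved with this: when each state was first centred on its median, 4 of the 37 stayed below every other state and 1 of the 6, Krt18, was called lower. The table carries neither depth nor cells per state, and their part in the low sums was not tested. Of the 20 highest genes in these states 10 were called higher, and the other 10 were within 0.25 of the mean elsewhere. The glycolytic enzymes Eno1 (1.196 in state 22 and 1.196 in state 9 against 1.27) and Tpi1 (1.18 and 1.18 against 1.18) and the translation factor subunit Eif3e (1.12 and 1.08 against 1.05) were among those. Of 12 gene families taken by symbol, all measured members of 9 were under 0.1 in both states. The exceptions were Krt18 and Krt8 among 4 keratins, Gata1 among 6 Gata genes and Klf1 among 4 Klf genes. Counted by single genes and not by family, 79.4% of all genes were under 0.1 in both states, so low members were common. In neither state did any of 16 Hox genes measured pass 0.0246, any of 6 Sox genes 0.0248, any of 6 Wnt ligands 0.0207 or any of 9 collagen genes 0.0534.

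The red cell states were closer to each other than the 3 other pairs of like states they were set beside. They correlated at r = 0.985 across genes, against 0.957 for states 0 and 25, 0.972 for states 29 and 40 and 0.714 for states 26 and 31. The SD of the differences between states 22 and 9 was 0.0352, against 0.0568, 0.0746 and 0.120 in those pairs. States 22 and 9 also had the lowest sums of the map, and the part of this in the small SD was not tested. The count of genes above every other state was 31 here, and 12, 47 and 9 in those pairs, while the count below every other state was 37 here, and 15, 16 and 0 there. No test of these differences was possible. The state most like them was 36, at r = 0.570 with state 22 and 0.613 with state 9, followed by state 13 at 0.118 and 0.166. State 16 was least alike, at -0.295 and -0.287. These correlations are across gene-centred levels of states that share libraries, and genes are not independent replicates.

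States 22 and 9 differed from each other by less than 0.1 in 687 of 712 genes (96.5%). State 22 was higher by 0.25 in none and lower in 2 (0.281%), and by 0.1 it was higher in 2 (0.281%) and lower in 23 (3.23%). State 22, whose sum was also the lower, was lower at any size in 561 genes (78.8%), and higher in 18 of the 23 genes called higher than elsewhere. The rule favoured state 22 in this count. With state 22 alone the same 23 genes were called and with state 9 alone 28, so genes that passed only in state 9 were left out. Hbb-bs was at 1.22 in state 22 and 0.999 in state 9, the largest difference in that direction (0.222), while Vbp1, a prefoldin subunit, was at 0.626 and 0.525. Hba-a2 was at 1.53 and 1.44 and Hba-a1 at 1.78 and 1.72. The 3 globins were thus all higher in state 22, while some other red cell genes were lower there. Among these were the spectrin gene Sptb (0.213 in state 22 and 0.387 in state 9), Tspan33 (0.314 and 0.531), the mitochondrial transporters Abcb10 (0.488 and 0.634) and Slc25a37 (0.685 and 0.798). Runx1 (0.146 and 0.276) and the platelet integrin chain Itga2b (0.119 and 0.238) were lower in state 22 as well, whereas Klf2 was slightly higher there (0.0803 and 0.0662). The large scaffold protein gene Ahnak (0.0408 and 0.213) and the growth factor gene Fgf3 (0.267 and 0.434) were lower too. Fn1 (chromosome 1, 71585520 to 71653200), fibronectin of the extracellular matrix, was at 0.0787 in state 22 and 0.374 in state 9, against 0.757 in state 36. Xist (chromosome X, 103460366 to 103483254), the non-coding RNA behind X inactivation in females, showed the largest difference of all, at 0.452 in state 22 and 0.787 in state 9, against 0.792 in state 36. Of the 25 genes that differed by 0.1 or more, 18 were nearer to the level of state 36 in state 9, as were 63.5% of all genes. Differences of this size have no replicate to set them against, and the sex and stage of the cells in each state were not analysed here.

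**Figure D4:**
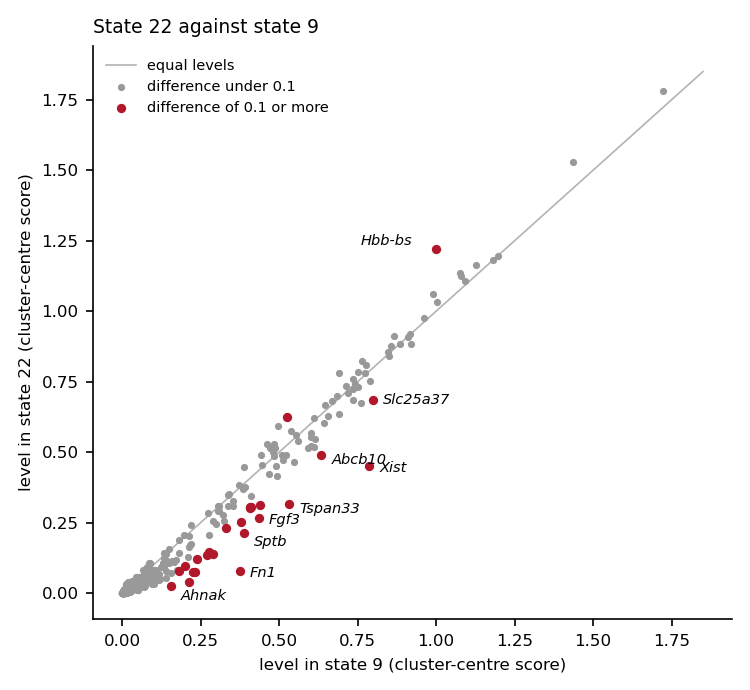
Level in state 22 (vertical) against level in state 9 (horizontal) for each of 712 genes, with genes that differ by 0.1 or more in red. Nearly all points lie on the line of equal levels, Hbb-bs lies above it at 1.22 and 0.999, and Xist and Fn1 lie furthest below.

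Globin levels were not confined to these states. Hba-a1 was at 0.1 or more in 35 of the other 39 states without state 36, with a median of 0.429 and a highest level of 0.664 in state 40. For Hba-a2 the median was 0.129 and for Hbb-bs 0.132. Hba-a1 was lowest, at 0.00606 in state 19, 0.0116 in state 3 and 0.03603 in state 17. Some other erythroid genes differed from this: Alas2, Klf1 and Trim10 reached 0.1 in 0 of the 39 states. Their highest levels there were 0.0828 for Alas2, 0.0984 for Klf1 and 0.0174 for Trim10, all in state 13. Not all did, since Gata1 reached 0.275 in state 13 and Blvrb reached 0.5499 among the other states. Droplet libraries can carry free RNA of abundant transcripts into other cells, and its part in the globin levels was not tested.

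**Figure D5:**
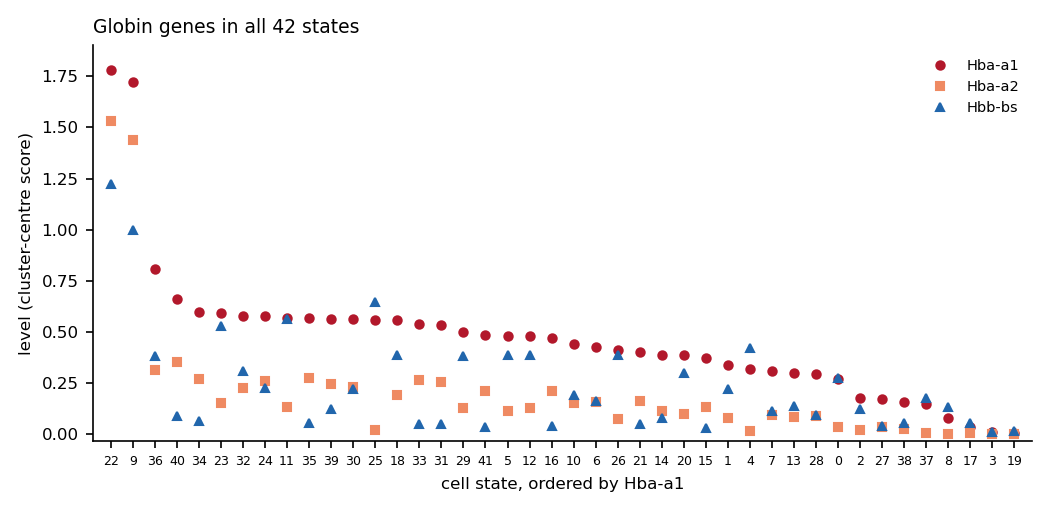
Levels of Hba-a1 (circles), Hba-a2 (squares) and Hbb-bs (triangles) in all 42 states, ordered from left to right by Hba-a1. States 22 and 9 stand apart at the left with Hba-a1 at 1.78 and 1.72, state 36 follows at 0.808, and the remaining states run down to 0.00606.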

How the data were processed

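RNA of pooled, dissociated embryos was captured with 10x Genomics 3' chemistry (version 2), outer extraembryonic tissues being kept where possible, per the labels' protocols. Cell Ranger (version not given) and mm10 are named in the submitters' processing notes. The deposited score is the centre of each cell state, per the file headers. Its normalisation, log base, gene choice and clustering are not given in the sources used here. The 42 columns name no library and were taken to pool all 8, so no sample entered as a replicate and depth is unknown.

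Calls needed both states 22 and 9 to differ from the mean of the other 40 states, or from state 36, by 0.5, and state 22 from state 9 by 0.25. Likeness was Pearson's r across gene-centred levels. Positions came from GENCODE M21 (GRCm38; 704 of 712 genes found), promoter windows from RefSeq. The rule named the 15 genes furthest from the other states, 10 per direction for extremes and for state 36, 6 per direction within the pair, 1 on each side of a threshold, and list members. Slc38a5, Eno1, Tpi1, Eif3e and Slc39a8 were chosen after their values were seen. Some genes counted are not reported here by name. The members and lists were chosen with earlier results of these data known. Among the remaining marker lists, 8 of 9 blood progenitor markers summed to 1.56 in state 22 and 2.02 in state 9, against 3.86 in state 36. Both sums were above the median of 0.391 for the other 39 states. Mesoderm markers summed to 0.0811 and 0.116 against 0.229, epiblast markers to 0.168 and 0.292 against 0.794, and epithelial markers to 0.258 and 0.345 against 0.298. Alternatives covered the threshold, the reference, the centring of states and the states left out. The counting code was tested on simulated data and returned the planted genes. Python 3.11.15, pandas 2.3.3, numpy 2.4.6, biopython 1.88 and matplotlib 3.10.9 were used.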

Additional observations from a re-analysis of the deposited data

How the results depend on the processing

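No paired analysis was possible because the columns carry no library or replicate, and none could be left out. Counts moved chiefly with the threshold. At 0.75 and at 0.25 there were 9 and 44 genes higher than the other states (23 at 0.5), 0 and 53 lower (6 at 0.5), 3 and 28 higher than state 36 (11 at 0.5), and 0 and 51 lower than state 36 (11 at 0.5). With each state centred on its median, which shifted differences by 0.0426, 1 gene was lower than the other states and 4 were below every other state. With a gap of 0.1 required, 1 gene was below every other state. At a threshold of 0.1 state 22 was higher than state 9 in 2 genes and lower in 23, and at 0.5 it was lower in 0. Of 172 values of 43 named genes under the alternatives, 166 stayed on their side of 0.5, taken as the mean of states 22 and 9. In none did a difference of 0.5 or more change sign. Smaller ones did: Mef2c, Ctla2a, Plek and Klf2 (-0.0949 to -0.0111) were at 0.00605 to 0.0307 against the median of the other states, and Plek (0.0316) and Klf2 (0.00124) also turned after centring. The 6 that ended under 0.5 in size were Krt18 (-0.443), Krt8 (-0.403) and Phlda2 (-0.463) against the median of the other states, Igfbp2 (-0.495) and Phlda2 (-0.483) after centring, and Acp5 (0.489) with state 22 alone. The call needs both states, and after centring Krt8 (-0.495), Mest (-0.493) and Tpm4 (-0.469) lost it through state 9. Low levels may rest on few reads, which the table does not show.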

Other observations

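Mt1, a metallothionein that binds zinc and copper, was at 0.7402 in state 22 and 0.741 in state 9, against 0.405 in state 36 and a mean of 0.518 in the other 40 states. Mt2, its neighbour in sequence and role, was at 0.4904 and 0.508, against 0.1001 in state 36 and a mean of 0.472. Neither was called, and the highest levels of both lay elsewhere, at 1.49 for Mt1 in state 40 and 1.34 for Mt2 in state 28. Slc39a8, a metal importer of the ZIP family, was at 0.636 and 0.691, against 0.374 in state 36 and a mean of 0.161. Of the other 2 stress genes measured, Hspb1 was at 0.0356 and 0.0248 against a mean of 0.213, and Ddit4 at 0.0253 and 0.0319 against 0.271.

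Of 22 listed cell cycle and growth genes 3 were measured, and none of them was called in either comparison. The imprinted growth factor Igf2 was at 0.0785 in state 22 and 0.1796 in state 9, against 0.414 in state 36, Dlk1 at 0.0464 and 0.0552 against 0.0463, and the kinase Pim2 at 0.01201 and 0.0244 against 0.03695.

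Outside the red cell states the 2 alpha copies varied together more closely than either did with Hbb-bs. Over the other 40 states Hba-a1 and Hba-a2, whose transcripts are nearly the same, correlated at r = 0.852, Hba-a1 and Hbb-bs at 0.424, and Hba-a2 and Hbb-bs at -0.0681. These are descriptions over states that share libraries. State 25 had the highest Hbb-bs of those states, 0.645, with Hba-a2 at 0.02303, whereas state 40 had the highest Hba-a2 outside, 0.354, with Hbb-bs at 0.0908.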
